A study of Mus musculus with 6 samples.

Results

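Proteasome genes were followed in the livers of wild-type (WT) mice and of mice lacking Gα12. Members were the genes whose probes map through their accession to a RefSeq symbol beginning Psma, Psmb, Psmc, Psmd, Psme, Psmf or Psmg with a number, pseudogenes left out, and whose signal exceeded background clearly on 3 or more of 6 arrays (the scanner software's own call, "well above background"). RefSeq lists 51 such genes, 50 had a probe, and 47 passed the filter on dim signals, with 58 of their 61 probes, out of 12297 named genes that passed it on the whole array. The 47 were sorted by role into 14 genes of the core particle, 17 of the regulatory particle, 3 immunoproteasome subunits and 13 others, which are activators, an inhibitor, assembly chaperones and 1 gene that meets the rule by its name only.

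The proteasome is the barrel-shaped protease that degrades proteins tagged with ubiquitin. Its core particle stacks rings of α subunits, which form the gate, around rings of β subunits, of which Psmb5, Psmb6 and Psmb7 carry the active sites, and the regulatory particle binds, unfolds and feeds the substrate through a ring of ATPases in its base. In cells exposed to interferon, Psmb8, Psmb9 and Psmb10 are built in at the places of the constitutive catalytic subunits, and the resulting immunoproteasome supplies peptides for antigen presentation. In hepatocytes most subunits are made at all times, and a shortage of proteasome activity raises their transcription as a group through the factor Nfe2l1.

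Liver RNA from 6 male mice was hybridised to 1-colour Agilent arrays, 3 for WT and 3 for the Gα12 KO, in which Gna12, the gene of the G protein subunit Gα12, is deleted. All animals were 8 weeks old, had eaten chow, were fasted overnight, and were of mixed C57BL/6 and 129/Sv descent, stated as a 95% C57BL/6 background. The deletion is not described as limited to a cell type, so it is taken as present in every liver cell, and whole liver was extracted, where fewer cells of a type and less RNA per cell cannot be told apart. The labels give 3 mice in each group, so each array was taken as 1 mouse. A level is a log2 signal from which that array's 75th percentile was subtracted, and a difference is the knockout mean minus the WT mean.

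The WT arrays were not alike, and this touches every result below. Across the 23132 probes that passed the filter on dim signals, WT replicates 1 and 2 correlated at 0.973 with each other. They correlated at 0.869 to 0.930 with the knockout arrays, while WT replicate 3 correlated at 0.966 to 0.982 with the knockout arrays. The 7 probes for Gapdh, which would sit at a fixed spacing if every array read them alike, spanned 9.58, 7.79 and 4.01 log2 units on WT replicates 1 to 3 and 4.36 to 4.87 on the knockout arrays. All WT arrays lay in row 1 of the slide and all knockout arrays in row 2, so slide row cannot be told apart from genotype. The single Gna12 probe was well above background on WT replicate 3 only, and so checks little of the labels. The hepatocyte markers were present on every array, with all 10 of 10 kept and summed levels of 12.0 to 12.7 in WT and 12.3 to 12.7 in the knockout.

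No proteasome gene passed the test between genotypes. Limma, adjusted over all kept probes, called 0 of the 47 genes, against 0% of all genes, and with the mean over the probes of a gene it again called 0 members, against 0.0569% of all genes. With all arrays the adjusted p of the members ran from 0.235 to 0.968. At an unadjusted limma p below 0.05 the knockout was lower for 1 member, the ATPase gene Psmc6, against 16.6% of all genes, and higher for 3 members, Psmb2, Psmf1 and Psmb8, against 3.98% of all genes. Knockout values lay wholly below WT values for 3 members, Psmc6, Psmd6 and Psme4, against 21.1% of all genes, and wholly above for 2, Psmb8 and Psmc4, against 4.42%. By p and by overlap alike, the count of lower members lay below the share of all genes, and that of higher members was near its share. Of the 3 members higher by p, 2, Psmb2 and Psmf1, rest on low values of WT replicates 1 and 2. Leaving out any single array other than WT replicate 3 left 0 members below 0.05 by unadjusted limma p in either direction. In those fits 1540 to 3161 of the 23132 kept probes were below it. Without WT replicate 3 there were 28 lower and 6 higher members, where 14566 of the 23132 probes were below 0.05 in either direction.

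The knockout mean was below the WT mean for 35 of the 47 members, close to the 72.3% of all genes. This split became 22 lower and 25 higher after quantile normalization, where 63.1% of all genes were lower. It was 23 and 24 after normexp with quantile normalization (62.4% of all genes lower), and 33 and 14 with arrays scaled to the median (67.1%). The members' median difference was -0.45, and that of all genes was -0.49. The other scalings moved the median of all genes to -0.36 (median), -0.21 (quantile) and -0.17 (normexp with quantile), and the members' median to -0.31, 0.04 and 0.0045. By class, the medians were -0.70 for the core particle, -0.48 for the regulatory particle and -0.20 for the immunoproteasome, which lay -0.20, 0.01 and 0.29 from the median of all genes. After quantile normalization the class medians were -0.17, 0.0059 and 0.27, which lay 0.04, 0.21 and 0.48 from it, so the core particle was no longer below the median of all genes.

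**Figure D1:**
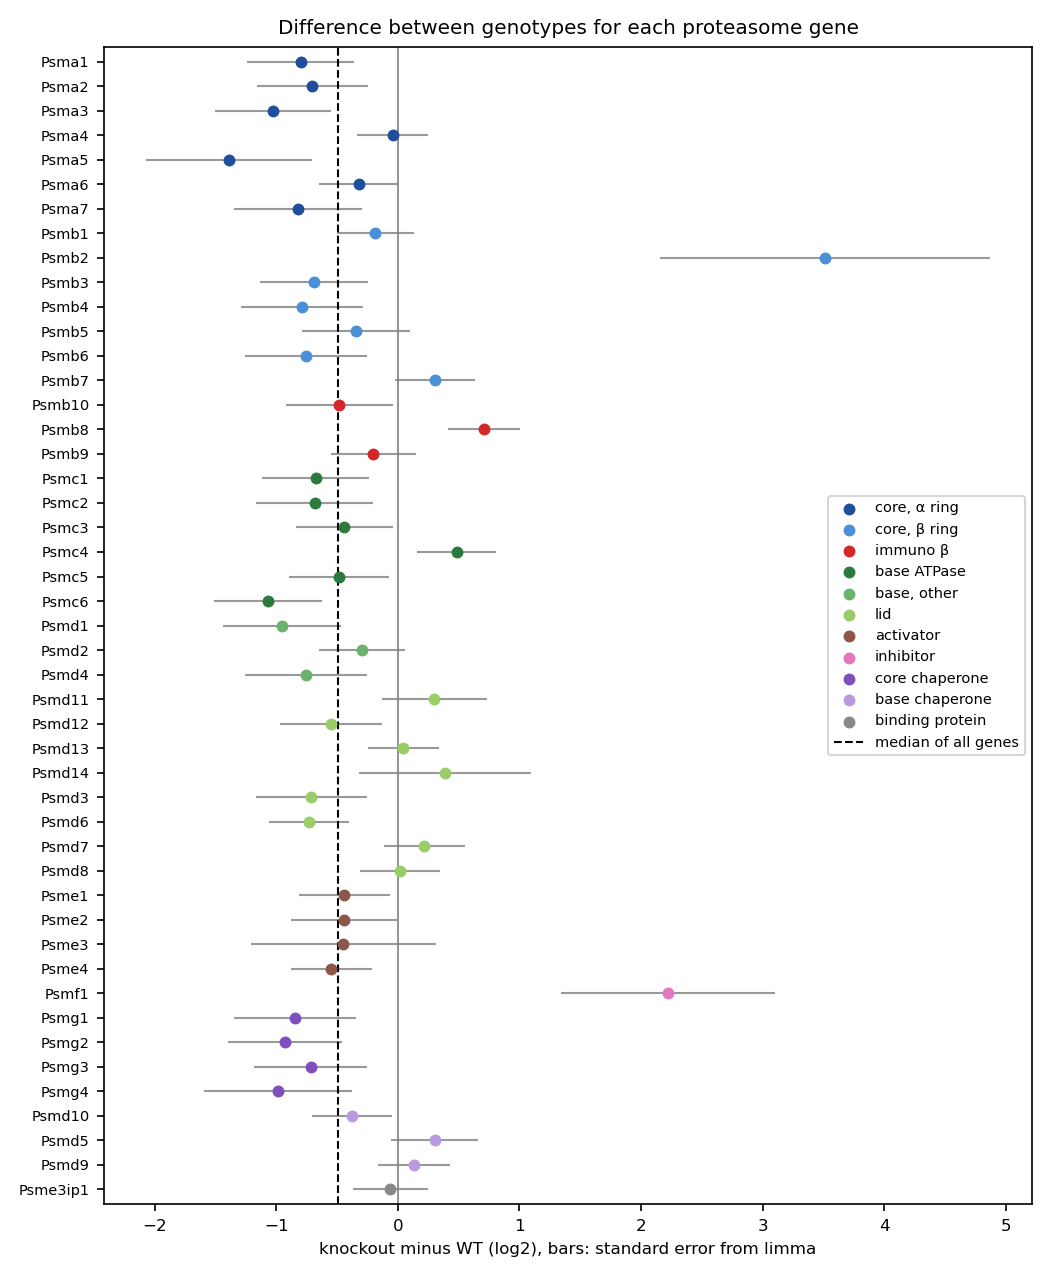
Each point is 1 of the 47 genes, placed by its difference between genotypes in log2 units (knockout minus WT, 3 arrays each), with bars of 1 standard error from limma and colours for roles; the dashed line is the median of all genes, -0.49. Most genes sit left of 0 near the dashed line, and Psmb2 at 3.51 and Psmf1 at 2.23 sit far to the right with the widest bars.

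In the α ring all 7 genes had a lower knockout mean, where 72.3% of all genes had, with a median difference of -0.80, although 6 did with median scaling and 5 after quantile normalization, where the median was -0.28 beside -0.21 for all genes. For Psma3, the subunit of this ring with the lowest p, the WT replicates 1 to 3 gave 8.56, 7.85 and 6.75 and the knockout replicates gave 6.62, 6.63 and 6.83. WT replicates 1 and 2 were high, and WT replicate 3 fell among the knockout values. The difference was -1.03 (SE 0.48), which limma did not call (adjusted p = 0.241). Psma5 had the lowest difference of all members, -1.39 (SE 0.68), with 7.77, 7.09 and 4.95 in WT and 5.46, 5.05 and 5.14 in the knockout, so WT replicate 3 was the lowest array. Psma4 was nearly level on all 6 arrays, with 4.72, 4.67 and 4.46 in WT and 4.64, 4.53 and 4.55 in the knockout (difference -0.04, SE 0.29). Psma1, Psma2, Psma6 and Psma7 differed by -0.80, -0.70, -0.32 and -0.82, and the SD of their 3 knockout arrays ran from 0.01 for Psma7 to 0.21 for Psma6.

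The constitutive β ring held the widest range. Psmb3 and Psmb4, structural subunits, differed by -0.69 (SE 0.45) and -0.79 (SE 0.50), with the same high WT replicates 1 and 2. Psmb1, another structural subunit and the member of this ring with the highest p, gave 5.44, 6.04 and 5.56 in WT and 5.53, 5.45 and 5.51 in the knockout, so only WT replicate 2 stood out. Psmb2, also structural, gave -3.75, -2.28 and 2.31 in WT and 2.57, 2.22 and 2.02 in the knockout. WT replicates 1 and 2 were far below the other 4 arrays, the probe was not well above background on WT replicate 1, and WT replicate 3 lay within the knockout range. The fitted difference of 3.51 (SE 1.35) had an unadjusted limma p of 0.0332 and an adjusted p of 0.235, and it was -0.03 without WT replicates 1 and 2.

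Psmb5 carries the chymotrypsin-like activity, which cuts after hydrophobic residues and is the target of clinical proteasome inhibitors. Its values were 8.75, 8.42 and 7.25 in WT and 7.83, 7.95 and 7.62 in the knockout. WT replicate 3 was the lowest of the 6 arrays and WT replicates 1 and 2 the highest, so the groups overlapped. The difference was -0.34 (SE 0.44, limma adjusted p = 0.587). A factor that activates proteasome genes under proteotoxic or oxidative stress binds the antioxidant response element, whose core is TGACNNNGC, and Psmb5 holds these letters close to its start. The window is shown because its gene is paired with Psmb8 below. It lies at chr14:54617996-54618245 of GRCm38.p6 on the minus strand and gives, from RefSeq, the 250 bases before the start, 5′ to 3′, with the match in capitals, 47 bases before the start.
Psmb5: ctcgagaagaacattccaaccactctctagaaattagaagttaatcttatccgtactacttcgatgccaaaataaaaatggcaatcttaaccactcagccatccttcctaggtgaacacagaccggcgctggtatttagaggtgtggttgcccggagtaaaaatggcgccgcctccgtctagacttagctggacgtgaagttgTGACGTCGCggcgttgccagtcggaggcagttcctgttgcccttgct

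Psmb6 carries the caspase-like activity. It gave 8.79, 8.43 and 6.95 in WT and 7.40, 7.36 and 7.16 in the knockout, again with WT replicates 1 and 2 above and WT replicate 3 below all knockout arrays. Its difference was -0.75 (SE 0.50, limma adjusted p = 0.326). Psmb7 carries the trypsin-like activity and took the opposite order, with 4.68, 4.57 and 5.25 in WT and 5.19, 5.21 and 5.01 in the knockout. Here WT replicates 1 and 2 were the lowest arrays and WT replicate 3 the highest, and the difference was 0.31 (SE 0.33, limma adjusted p = 0.517).

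The 3 immunoproteasome genes did not move together. Psmb8, whose product replaces that of Psmb5, gave 3.53, 3.64 and 3.36 in WT and 4.17, 4.31 and 4.18 in the knockout. Every knockout array was above every WT array, WT replicate 3 was the lowest, and WT replicates 1 and 2 lay close to it, so this gene did not follow the division among the WT arrays. The WT mean was 3.51 ± 0.14 (SD, n = 3) and that of the knockout 4.22 ± 0.08 (SD, n = 3), a difference of 0.71 (SE 0.29) with an unadjusted limma p of 0.0434 and an adjusted p of 0.235. The difference was above 0 in 17 of 17 settings, from 0.63 without WT replicate 3 to 1.14 after quantile normalization. Among the named members Psmd9 (above 0) and Psma3, Psmc6, Psmd6 and Psme4 (below 0) also kept their sign in all 17. Leaving out arrays could not turn the sign of Psmb8, Psmc6, Psmd6 or Psme4, whose groups do not overlap. For Psmb8 the filters, the mean over probes, the variance model and the replicate block left the difference at 0.71. Only the other scalings could have turned that difference. Without WT replicates 1 and 2 it was 0.86 (SE 0.19), with an unadjusted limma p of 0.0110 and an adjusted p of 0.603, a fit with a single WT array that is assumed to vary like the knockout arrays.

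Psmb9, which replaces Psmb6, gave 4.44, 4.19 and 3.52 in WT and 3.79, 3.96 and 3.80 in the knockout. WT replicates 1 and 2 were above and WT replicate 3 below the knockout arrays, and the difference was -0.20 (SE 0.35, limma adjusted p = 0.693). Psmb10, which replaces Psmb7, gave 6.66, 6.39 and 5.14 in WT and 5.62, 5.64 and 5.49 in the knockout. As for Psmb9, WT replicates 1 and 2 were above and WT replicate 3 below all knockout arrays, and the difference was -0.48 (SE 0.44, limma adjusted p = 0.459). The directions of Psmb9 and Psmb10 turned after quantile normalization, to 0.27 and 0.04.

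Psmb9, the peptide transporter gene Tap1, Psmb8 and its partner transporter gene Tap2 follow each other on chromosome 17 in RefSeq's gene order. Tap1 gave -5.08, -4.03 and -1.08 in WT and -1.15, -1.04 and -0.82 in the knockout, and was well above background on 2 of 3 WT arrays. Tap2 differed by -0.68 (SE 0.46), so the neighbours of Psmb8 had differences of both signs. The promoter of Psmb8 is shown because it is 1 of the 5 members whose groups did not overlap and 1 of the 3 that were higher by unadjusted p. It holds a match, in capitals, to TTCNNNGAA, the letters of the GAS element that interferon-activated factors bind, starting 97 bases before the start at chr17:34197945-34198194 (GRCm38.p6, plus strand, RefSeq).
Psmb8: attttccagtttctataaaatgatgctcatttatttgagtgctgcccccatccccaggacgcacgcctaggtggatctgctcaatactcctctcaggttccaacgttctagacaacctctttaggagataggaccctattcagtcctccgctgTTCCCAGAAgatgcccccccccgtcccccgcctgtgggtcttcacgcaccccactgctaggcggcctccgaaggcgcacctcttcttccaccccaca

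Each immunosubunit was then set against the subunit it replaces on the same array, since such a difference does not move when a constant is added to all log2 levels of an array. It does move with quantile normalization, which took the shift of Psmb8 minus Psmb5 given below to 0.95. The size of the gap itself depends on both probes and says nothing of transcript ratios. Psmb8 minus Psmb5 was -5.22, -4.78 and -3.90 in WT and -3.67, -3.64 and -3.44 in the knockout. All knockout arrays were above all WT arrays, and the WT gap had a mean of -4.64 ± 0.68 (SD, n = 3) and the knockout gap of -3.58 ± 0.12 (SD, n = 3). The shift of 1.05 gave p = 0.1 in a two-sided exact permutation test, the smallest value that 3 against 3 allows, and 0.3 after Benjamini-Hochberg adjustment over the 3 pairs. WT replicate 3 alone lay 0.31 below the knockout mean gap.

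Psmb9 minus Psmb6 was -4.35, -4.24 and -3.43 in WT and -3.60, -3.40 and -3.36 in the knockout. WT replicate 3 fell inside the knockout range, and the shift of 0.55 gave p = 0.2 in the exact permutation test (0.3 adjusted over the 3 pairs). Psmb10 minus Psmb7 was 1.98, 1.83 and -0.10 in WT and 0.43, 0.43 and 0.48 in the knockout. WT replicates lay on both sides of the knockout arrays, and the shift of -0.79 gave p = 0.4 in the exact permutation test, also after adjustment. The pairs thus shifted in different directions, and for each of them the WT arrays spread more than the knockout arrays.

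**Figure D2:**
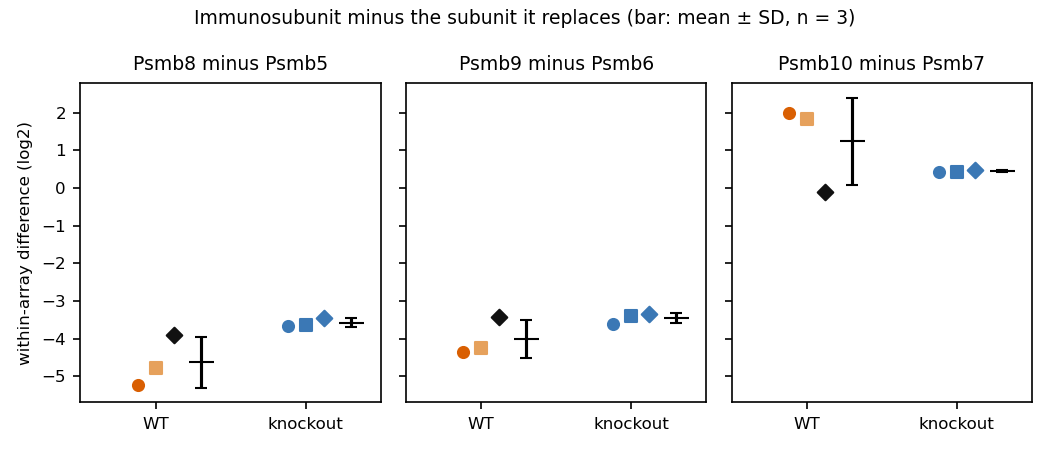
Points give the log2 level of an immunosubunit minus that of the subunit it replaces on each array, in 3 panels, with WT replicates 1 to 3 at left (orange circle, light orange square, black diamond) and knockout replicates at right (blue); bars are the mean and SD of 3 arrays. For Psmb8 minus Psmb5 the groups are apart, and in every panel WT replicate 3 (-3.90, -3.43 and -0.10) is nearer to the knockout arrays than are WT replicates 1 and 2.

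In the base of the regulatory particle, 6 ATPases form the ring that unfolds the substrate. Their median difference was -0.58, 5 of 6 had a lower knockout mean, and 3 of 6 did after quantile normalization. Psmc6 gave 4.95, 4.66 and 3.49 in WT and 3.40, 3.03 and 3.46 in the knockout. All WT arrays were above all knockout arrays, but WT replicate 3 exceeded knockout replicate 3 by little. The means were 4.37 ± 0.78 (SD, n = 3) and 3.30 ± 0.23 (SD, n = 3), so the WT mean was 2.10-fold the knockout mean. The difference of -1.07 (SE 0.44) had an unadjusted limma p of 0.0434 and an adjusted p of 0.235, and it was -0.19 without WT replicates 1 and 2. Psmc3, the ATPase gene with the highest p, gave 8.35, 8.18 and 7.12 in WT and 7.49, 7.46 and 7.38 in the knockout, with WT replicate 3 the lowest array. The window before Psmc6, the member with the lowest p among those lower in the knockout, also holds the antioxidant core, here read on the reverse strand (in capitals), 227 bases before the start at chr14:45329574-45329823 (GRCm38.p6, plus strand, RefSeq).
Psmc6: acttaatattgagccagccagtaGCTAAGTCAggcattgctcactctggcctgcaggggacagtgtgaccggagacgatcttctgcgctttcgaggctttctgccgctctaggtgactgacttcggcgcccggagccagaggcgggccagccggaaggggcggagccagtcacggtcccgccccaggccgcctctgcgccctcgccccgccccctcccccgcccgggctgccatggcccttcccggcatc

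Psmc4 was the ATPase gene with the opposite sign. It gave 3.98, 4.49 and 4.65 in WT and 4.85, 4.9996 and 4.73 in the knockout, so all knockout arrays were above all WT arrays. The difference was 0.48 (SE 0.33), and limma did not call it (adjusted p = 0.330). Psmc1, Psmc2 and Psmc5 differed by -0.68, -0.68 and -0.48.

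The 3 other base genes encode the scaffold subunits Psmd1 and Psmd2, which dock ubiquitin receptors and shuttle factors, and Psmd4, which binds ubiquitin chains itself. Psmd1 gave 6.65, 6.46 and 4.95 in WT and 5.06, 4.92 and 5.21 in the knockout. WT replicates 1 and 2 were about alike and high, WT replicate 3 lay among the knockout arrays, and the difference was -0.95 (SE 0.49, limma adjusted p = 0.253). Psmd2 gave 5.97, 6.51 and 5.54 in WT and 5.79, 5.77 and 5.58 in the knockout (difference -0.29, SE 0.35). Psmd4 differed by -0.75 (SE 0.50).

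The lid, which removes ubiquitin from the substrate, had a median difference of 0.03, which lay 0.53 from that of all genes. After quantile normalization its median was 0.50, which lay 0.71 from that of all genes. The knockout mean was lower for 3 of 8 genes with either scaling, and for 5 of 8 in the deposited matrix. Psmd6, a lid scaffold gene, gave 5.37, 5.61 and 4.84 in WT and 4.58, 4.48 and 4.57 in the knockout. All WT arrays, WT replicate 3 included, were above all knockout arrays. The difference was -0.73 (SE 0.33) with an unadjusted limma p of 0.0585 and an adjusted p of 0.239, and it was -0.30 (SE 0.19) without WT replicates 1 and 2. Psmd8, another structural lid gene, gave 4.33, 4.84 and 5.05 in WT and 4.87, 4.77 and 4.64 in the knockout, so WT values lay on both sides. Its difference was 0.02 (SE 0.33).

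Psmd14 encodes the deubiquitinase of the lid. Its values were -0.06, 2.80 and 2.11 in WT and 2.43, 1.57 and 1.997 in the knockout, so WT replicate 1 was far below the rest. The difference of 0.39 had an SE of 0.71. The other lid genes ranged from -0.71 for Psmd3 to 0.30 for Psmd11, with -0.55 for Psmd12, 0.05 for Psmd13 and 0.22 for Psmd7, the inactive partner of Psmd14.

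Activators open the core particle in place of the regulatory particle. Psme1 and Psme2, the interferon-inducible subunits of PA28, gave 6.71, 6.32 and 5.66 against 5.93, 5.89 and 5.55, and 7.88, 7.57 and 6.38 against 6.90, 6.87 and 6.73, in WT and knockout. In both, WT replicates 1 and 2 were the highest arrays, and the differences were alike at -0.44 (SE 0.37) and -0.44 (SE 0.44). Psme3, whose product forms the nuclear activator PA28γ, gave 6.86, 7.45 and 4.36 in WT and 5.55, 6.21 and 5.57 in the knockout. WT replicates 1 and 2 were the highest and WT replicate 3 the lowest of the 6 arrays, 1.42 below the knockout mean. The difference was -0.45 (SE 0.76) with all arrays and 1.42 (SE 0.35) without WT replicates 1 and 2, where its unadjusted limma p of 0.0158 became 0.628 after adjustment. Psme4, which encodes the activator PA200, gave 1.43, 2.15 and 1.73 in WT and 1.41, 0.99 and 1.27 in the knockout. The groups did not overlap, though WT replicate 1 was level with knockout replicate 1, and the difference was -0.55 (SE 0.33, limma adjusted p = 0.303). After quantile normalization 3 of the 4 activators had a higher knockout mean.

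Psmf1 encodes PI31, which inhibits the core particle in the test tube and helps transport proteasomes in cells. It gave -2.40, -1.51 and 1.41 in WT and 1.44, 1.43 and 1.30 in the knockout. As for Psmb2, WT replicates 1 and 2 were far below the other arrays and WT replicate 3 was within the knockout range. The difference of 2.23 (SE 0.88) had an unadjusted limma p of 0.0366 and an adjusted p of 0.235, and it was -0.02 without WT replicates 1 and 2.

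The chaperones that assemble the α ring, Psmg1 to Psmg4, had the lowest median of the roles, -0.89. All 4 had a lower knockout mean under each of the 5 scalings, where 62.4% to 74.0% of all genes had. Their median lay -0.39 from that of all genes, and -0.20 after quantile normalization. Psmg2, whose product pairs with that of Psmg1, gave 4.44, 3.82 and 2.69 in WT and 2.67, 2.65 and 2.85 in the knockout. WT replicate 3 was within the knockout range, and the difference was -0.93 (SE 0.47, limma adjusted p = 0.252). Psmg3, whose product pairs with that of Psmg4, gave 4.81, 4.64 and 3.26 in WT and 3.50, 3.72 and 3.34 in the knockout, with WT replicate 3 the lowest array (difference -0.72, SE 0.46). Psmg1 and Psmg4 differed by -0.84 (SE 0.50) and -0.98 (SE 0.61). WT replicate 3 was below the knockout mean for all 4 genes. Without WT replicates 1 and 2, Psmg1 to Psmg4 differed by 0.29, 0.03, 0.26 and 0.49, so their direction rests on those 2 arrays.

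By the probe that stood for each gene, chaperones of the base had smaller differences than those of the α ring. Their median of 0.13 lay further from that of all genes, however, at 0.62, and at 0.69 after quantile normalization. Psmd10, which encodes gankyrin, an oncoprotein of the liver, gave 2.16, 1.88 and 1.39 in WT and 1.51, 1.37 and 1.42 in the knockout (difference -0.38, SE 0.33). By its brighter probe Psmd9 was almost level, with 2.46, 2.72 and 2.62 in WT and 2.59, 2.86 and 2.75 in the knockout (difference 0.13, SE 0.30), but the mean over its probes differed by 1.02, and Psmd5 differed by 0.30 (SE 0.36). Psme3ip1, which meets the rule by name only and encodes a protein that binds PA28γ, gave 1.97, 2.25 and 1.77 in WT and 2.03, 2.02 and 1.76 in the knockout (difference -0.06, SE 0.31).

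Of the genes left out, Psme2b had no probe. Psmb11, the catalytic subunit of the thymus, and Psmc3ip, which acts in meiotic recombination and shares only the name, were not well above background on any array. Psma8, the α subunit of the testis, was well above background on 1 array, WT replicate 1, where its level was -2.14 against -3.23 and -3.75 on the other WT arrays and -4.92 to -3.35 on the knockout arrays.

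Over all members, the WT arrays spread more than the knockout arrays. The median SD was 0.79 in WT and 0.12 in the knockout for the members, and 0.65 and 0.19 for all genes. Relative to the knockout mean, the median member lay at 0.96 on WT replicate 1, 0.80 on WT replicate 2 and -0.21 on WT replicate 3, where all genes gave 0.82, 0.71 and 0.03. WT replicate 1 was the highest of all arrays for 27 members and the lowest for 11. WT replicate 3 was below the knockout mean for 33 of 47 members, against 46.7% of all genes, and above every knockout array for 7, against 32.6%. After quantile normalization the same medians were 0.01, 0.09 and -0.11 for the members, so the height of WT replicates 1 and 2 is not kept there.

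**Figure D3:**
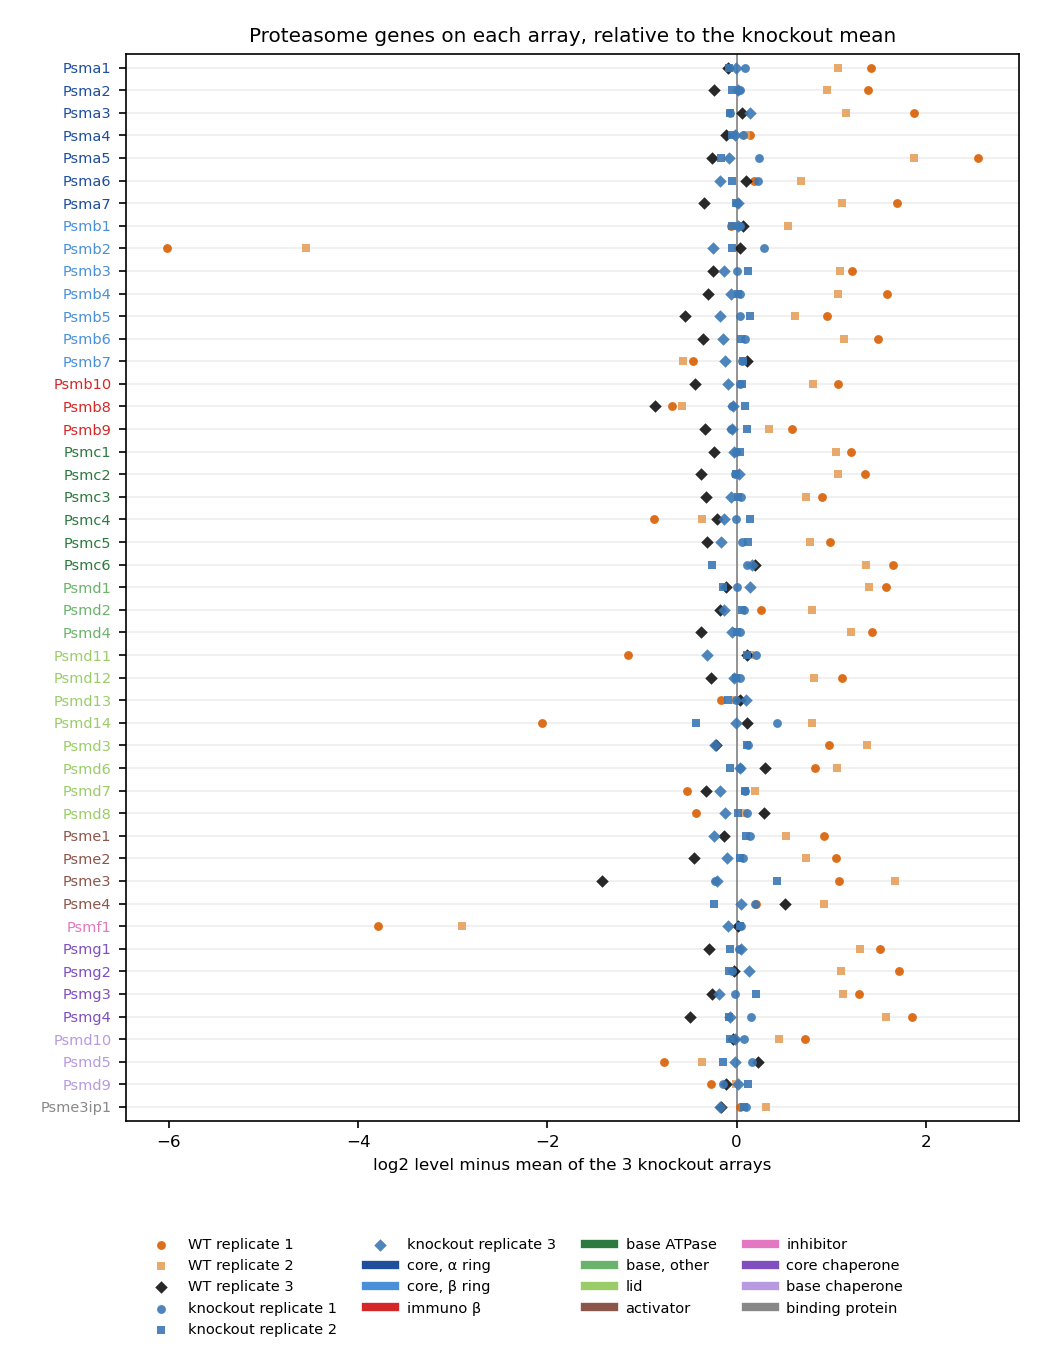
Each line is a gene and each point an array, placed by its log2 level minus the mean of the 3 knockout arrays, with WT replicates in orange, light orange and black, knockout replicates in blue, and gene names coloured by role. Knockout arrays cluster at 0, WT replicates 1 and 2 (median 0.96 and 0.80) lie mostly to the right, far to the left for Psmb2 and Psmf1, and WT replicate 3 (median -0.21) lies near the knockout arrays.

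The 3 main classes showed the same division. The core particle lay at 1.31, 1.01 and -0.18 on WT replicates 1 to 3, the regulatory particle at 0.90, 0.80 and -0.21, and the immunoproteasome at 0.59, 0.34 and -0.44, as medians. None of the 3 had a median above 0 on WT replicate 3, so the differences below 0 of the core and regulatory particle rest on WT replicates 1 and 2. Without WT replicates 1 and 2 the class medians were 0.18, 0.21 and 0.44. In that fit, which has 1 WT array, 0 members were lower at an unadjusted limma p below 0.05, against 4.06% of all genes, and 2 were higher, Psmb8 and Psme3, against 2.72%.

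Without WT replicate 3, in contrast, limma called 28 members lower and 3 higher (Psmb2, Psmf1 and Psmb8) at an adjusted p below 0.05. The shares of all genes called were 50.6% and 11.5%, so the members' share lay above the background for lower and below it for higher values, a difference that was not tested. The calls toward lower values took in 9 of 14 core genes, 10 of 17 regulatory genes, all 4 α ring chaperones and 3 of 4 activators. Psma5 (-2.21, SE 0.28, limma adjusted p = 0.00489) and Psmg4 (-1.72, SE 0.21, limma adjusted p = 0.00476) were among them. Within the immunoproteasome, Psmb10 was called lower and Psmb8 higher.

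**Figure D4:**
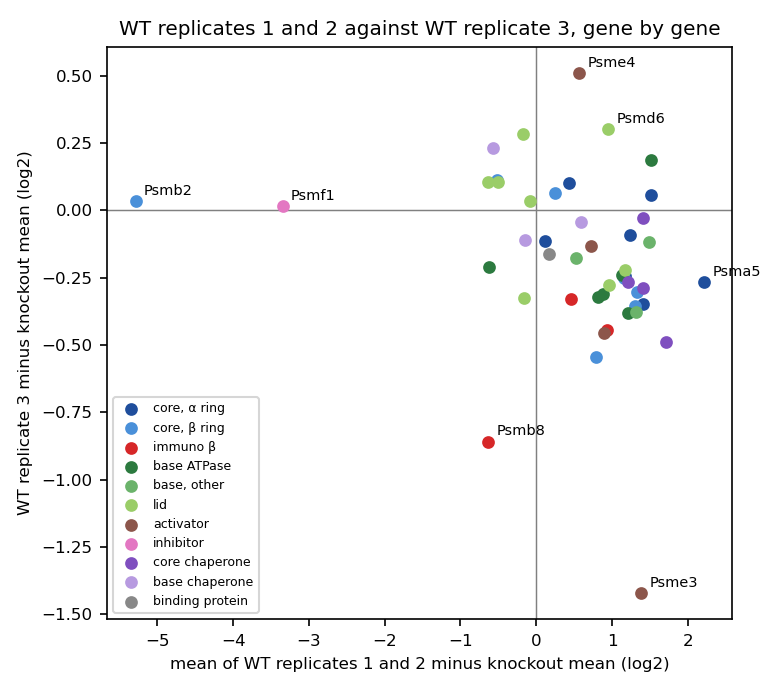
Each point is a proteasome gene, with the mean of WT replicates 1 and 2 minus the knockout mean on the horizontal axis and WT replicate 3 minus the knockout mean on the vertical axis, both in log2, coloured by role. Most genes are right of 0 and below 0, and Psmb8 is the immunoproteasome gene that is below 0 on both axes (-0.63 and -0.86), while Psme3 is at 1.38 and -1.42.

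The direction of this division varied with the gene. For 12 members WT replicates 1 and 2 lay on average below the knockout mean, close to the 27.5% of all genes, and for 35 above. As a description of probe brightness only, the knockout level had a median of 3.80 for those 12 and of 5.59 for the 35. Over all genes the order was the same, with medians of 0.36 for those below and 1.67 for those above. For the 11 members with a pair of kept probes, both probes read the same gene, so their gap would be alike on arrays that read them alike. The gap between the brighter and the dimmer probe had a median of 2.39, 2.30 and 1.59 on WT replicates 1 to 3 and of 1.89, 1.85 and 1.91 on the knockout arrays. It was widest on WT replicate 1 for 9 of the 11 genes.

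The probes disagreed most for Psmd12 and Psmd9. For Psmd12, a lid scaffold gene, the brighter probe gave 6.999, 6.70 and 5.61 in WT and 5.92, 5.87 and 5.86 in the knockout. Its dimmer probe gave -0.18, 0.58 and 2.01 in WT and 1.70, 1.60 and 1.72 in the knockout, so WT replicates 1 and 2 were high on 1 probe and low on the other. The differences were -0.55 (SE 0.42) and 0.87 (SE 0.55). For Psmd9 the dimmer probe differed by 1.91 (SE 0.65, limma adjusted p = 0.235) where the brighter differed by 0.13. Psma4, Psmc3 and Psme2 also had probes of opposite sign, so for 4 of 11 genes the direction depends on the probe. The Gapdh probes and these gaps moved with the same 2 arrays as the members' differences, and their part in those differences was not tested.

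**Figure D5:**
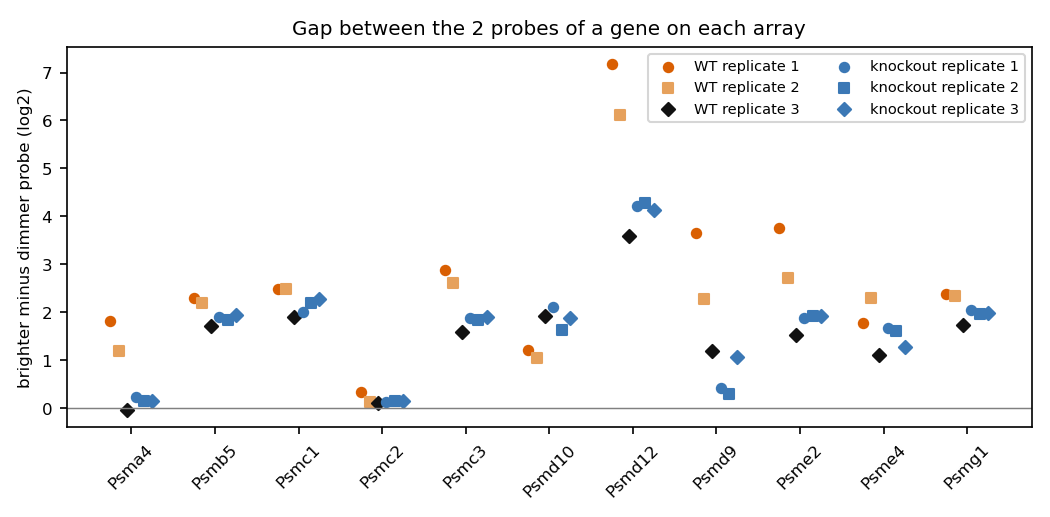
For each of the 11 genes with a pair of kept probes, points give the log2 gap between the brighter and dimmer probe on each array, with WT replicates in orange, light orange and black and knockout replicates in blue. The gaps of WT replicates 1 and 2 lie highest for most genes, reaching 7.18 and 6.12 for Psmd12, and Psmd10 goes the other way with 1.22 and 1.05.

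Genes that act with the proteasome were read from lists that name no member. Of 11 genes for proteins bound to the proteasome, 2 had an unadjusted limma p below 0.05, both lower in the knockout, where 16.6% of all genes were. These were Zfand5, which activates the proteasome, at -1.28 (SE 0.48), and Uchl5, a deubiquitinase on the regulatory particle, at -1.12 (SE 0.45). In both the knockout values lay wholly below the WT values, as for 21.1% of all genes. Zfand5 gave 4.90, 4.81 and 3.29 in WT and 3.17, 2.99 and 3.01 in the knockout. Uchl5 gave 4.49, 4.16 and 2.92 in WT and 2.77, 2.72 and 2.73 in the knockout. All 11 had a lower knockout mean, where 72.3% of all genes had, with a median of -0.67. After quantile normalization 9 of them did, where 63.1% of all genes did. Pomp, the maturation factor of the core particle, gave 7.11, 6.52 and 5.53 in WT and 6.04, 6.03 and 5.97 in the knockout, the array order of Psmb6.

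Of 7 kept genes for the transcriptional control of proteasome genes, 2 were lower at an unadjusted limma p below 0.05 and 0 higher, where 16.6% and 3.98% of all genes were, and Ddi1 was not kept. Nfe2l2, the factor of the oxidative stress response, gave 5.66, 5.23 and 3.32 in WT and 2.68, 2.99 and 3.13 in the knockout. All WT arrays were above all knockout arrays, and the difference was -1.80 (SE 0.60, limma adjusted p = 0.235). Ngly1, which activates Nfe2l1 by removing its sugars, differed by -1.43 (SE 0.45), also without overlap. Groups lay apart in this direction for 21.1% of all genes. Nfe2l1 itself gave -4.21, -2.32 and -0.99 in WT and -1.51, -1.08 and -1.46 in the knockout, and it was well above background on 2 of 3 WT arrays. WT replicate 3 was the highest and WT replicate 1 the lowest of the arrays, and the difference was 1.16 (SE 0.74).

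For ubiquitin and its first enzymes, 0 of 10 genes had an unadjusted limma p below 0.05, where 16.6% of all genes were lower and 3.98% higher. Their median was -0.53, and the lowest p belonged to the conjugating enzyme genes Ube2n (-1.11, SE 0.50) and Ube2d2a (-0.94, SE 0.47). For the shuttle factors and the segregase that deliver substrates, the count was 0 of 9, beside the same shares of all genes. Their median was -0.46, Ubqln4 (1.39, SE 0.61) and Vcp (-0.95, SE 0.46) had the lowest p, and Ubxn4 was not kept. The antigen processing list had a median of -0.39 over 12 genes, and the lowest p belonged to Irf1, an interferon-responsive factor known to act on immunoproteasome genes, at -1.74 (SE 0.65), and to Tap1 at 2.39 (SE 0.91). Irf1 gave 5.47, 4.98 and 2.89 in WT and 2.38, 2.76 and 2.99 in the knockout, so it was high on WT replicates 1 and 2 where Psmb8 was not.

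In the promoters, the antioxidant core TGACNNNGC was found on either strand of the 250 bases before the start in 5 of 40 members with a RefSeq window (12.5%), Psmb5, Psmb6, Psmc6, Psmd9 and Psmd12, and in 11.5% of 27025 genes. TTCNNNGAA was found in 2 members, Psmb8 and Psmg1 (5%), and in 8.13% of genes. The interferon-stimulated response element (GAAA, any 2 bases, GAAA) was found in 3, Psmb3, Psmd4 and Psmd9 (7.5%), and in 3.46% of genes. The end of TTCNNNGAA can overlap the beginning of that element. None of the 3 motifs was held by most members.

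Immunoproteasome genes are made at high level in immune cells, so markers of those cells were read beside them. The summed level of 11 macrophage markers was 7.60, 7.56 and 6.60 on WT replicates 1 to 3 and 6.68 to 6.93 on the knockout arrays. At an unadjusted limma p below 0.05, 0 of 11 were lower and 1, C1qa, higher, where 16.6% and 3.98% of all genes were. Of 12 lymphocyte markers with a probe, 8 were kept, with summed levels of 6.53, 5.93 and 5.83 in WT and 6.05 to 6.79 in the knockout. Cd3g, Cd79a, Cd8a and Klrb1c were not kept. Both sums overlapped between genotypes, as did those of the 6 endothelial markers (6.67 to 7.02 in WT, 6.50 to 6.89 in the knockout) and of the 4 kept of 5 stellate cell markers (2.58 to 3.998 in WT, 2.18 to 2.59 in the knockout). The macrophage sum was highest on WT replicates 1 and 2, as were Psmb9 and Psmb10, whereas Psmb8 was not. The single macrophage markers did not all follow the sum. WT replicate 1 was the highest array for 4 of the 11 and WT replicate 2 for 3, but WT replicate 1 was the lowest for 3, C1qa, C1qb and Lyz2. The part of macrophages in these levels was not tested.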

How the data were processed

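The spots of 6 arrays (59305 of 62976 were not controls) were quantified by Agilent Feature Extraction 10.7.3.1, per the submitters' processing notes. The deposited scanner files hold spot intensity on a linear scale, background-subtracted by that software per the file headers. The authors' deposited matrix is on a log2 scale. Set against the scanner files, it equals the log2 processed intensity shifted by 1 constant per array, whose choice is not given in the sources used here, and it is not centred by probe. Its column medians were 4.41, 4.17 and 4.70 in WT, replicates 1 to 3, and 4.32, 4.44 and 4.52 in the knockout.

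Log2 intensity minus each array's 75th percentile was averaged over a probe's spots, without controls and spots marked as outliers. Of 55681 probes, 55324 had a value on all arrays, and 23132 were well above background on at least 3 of 6 arrays and kept. Symbols came from the RefSeq GRCm38.p6 gene table by unversioned accession, which named 26762 probes for 20284 genes. The arrays were designed on another build, so no coordinates of that table are given. Promoter windows are those of RefSeq GRCm38.p6, and 7 of the 47 genes had none. Where several probes of a gene were kept, the brightest on average stood for it.

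Knockout minus WT was fitted with limma 3.58.1 in R 4.3.3 (lmFit, eBayes, two-sided) over all kept probes, p-values were adjusted by Benjamini-Hochberg (threshold 0.05), and the fit was tested on simulated data. Catalytic pairs were compared with exact permutation tests (scipy 1.17.1). Members were named if they were catalytic subunits or activators, had the lowest or highest p of their role, an unadjusted p below 0.05, or probes over 1 log2 unit apart; of the other lists, the 2 genes with the lowest p, Nfe2l1, Nfe2l2 and Pomp. Other members whose groups stood apart or whose values completed a role were named after their values were seen. Some genes of the lists are not reported here. The members, lists, rules and alternatives were chosen with earlier results of these data known. Replicate numbers did not pair the arrays: the same-number correlations of deviations between genotypes were -0.13, 0.0093 and -0.04. Alternatives were other scalings, background correction by normexp with an offset of 50, the deposited matrix, other filters, the mean over probes, another variance model, a replicate block, and arrays left out. No depth exists for arrays, and the number of arrays limits the precision.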

Additional observations from a re-analysis of the deposited data

How the results depend on the processing

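With all arrays, no setting called a member at an adjusted p below 0.05, and Psmb8 minus Psmb5, Psmb8, Psmd9, Psma3, Psmc6, Psmd6 and Psme4 kept their direction in all settings run. Of these, Psmb8 minus Psmb5, Psmb8, Psmc6, Psmd6 and Psme4 had groups that do not overlap, so leaving out arrays could not turn them. The replicate block left 0 probes called, and by its unadjusted p 1 member was lower and 2 were higher, with no median moved; the numbers gave no sign of pairing. Trend and robust estimation gave 1 lower and 3 higher. Leaving out 1 array gave 0 to 13123 probes called, 0 to 31 members called, and by unadjusted p 0 to 28 members lower and 0 to 6 higher, the highest of each without WT replicate 3; Psma4 ran from -0.12 to 0.0085, Psmd8 from -0.18 to 0.17, Psme3 from -1.38 to 0.17 and Psme3ip1 from -0.17 to 0.062. Median scaling gave 0 members lower, Psma4 0.10 and Psme3ip1 0.077. Quantile normalization gave 0 lower and 1 higher, medians of 0.0059 for the regulatory particle and 0.27 for the immunoproteasome, and Psma4 0.43, Psmb1 0.29, Psmb10 0.044, Psmb5 0.19, Psmb9 0.27, Psmc3 0.10, Psmd2 0.21, Psme1 0.095, Psme2 0.076, Psme3 0.082 and Psme3ip1 0.24. Normexp with quantile normalization gave 2 probes called, 0 lower and 5 higher, an immunoproteasome median of 0.23, and Psma4 0.36, Psmb1 0.29, Psmb10 0.051, Psmb5 0.20, Psmb9 0.23, Psmc3 0.059, Psmd2 0.18, Psme1 0.0045, Psme2 0.068, Psme3 0.039 and Psme3ip1 0.22. The deposited matrix gave Psmd8 -0.036. The filter on all 6 arrays gave 2 probes called. No filter gave 2 lower and 5 higher and an immunoproteasome median of 0.25, with Psmb11 included. The mean over probes, with fewer tests, gave 7 genes called, 0.0569% of all and no member, 2 lower, Psma4 0.37, Psmd12 0.16 and Psmd9 1.02. Without WT replicates 1 and 2 together, 0 members were lower, and the medians were 0.18 (core), 0.21 (regulatory) and 0.44 (immunoproteasome), with Psmb9 minus Psmb6 -0.025, Psmb10 minus Psmb7 0.55, Psma4 0.11, Psmb10 0.44, Psmb2 -0.034, Psmb5 0.54, Psmb6 0.36, Psmb7 -0.11, Psmb9 0.33, Psmc3 0.32, Psmd1 0.12, Psmd10 0.042, Psmd12 0.28, Psmd2 0.18, Psmd8 -0.29, Psme1 0.13, Psme2 0.45, Psme3 1.42, Psme3ip1 0.16, Psmf1 -0.016, Psmg2 0.029 and Psmg3 0.26. The cause of these changes was not tested. Signal over background limits Psmb2, whose probe was not well above background on WT replicate 1.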
